A study of Mus musculus with 2 samples.

Results

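The 8 genes described here mark mast cells and basophils. They are the transcription factor gene Gata2, the IgE receptor chain genes Fcer1a and Ms4a2, the histamine enzyme gene Hdc and the granule protease genes Cpa3, Mcpt8, Prss34 and Tpsb2. They were chosen by symbol in the platform annotation, each had 1 probe set, and all 8 were found among 19505 named genes. RNA was measured on 2 microarrays. The first held wild-type innate lymphoid cell (ILC) progenitors. The second held ILC progenitors labelled Yeats4 knockout, taken from mice in which Yeats4 was deleted, and the wild type came from littermates. Both were flow-sorted progenitors without lineage markers that carried CD127 and the α4β7 integrin, with intermediate c-Kit and Sca-1. How Yeats4 was deleted, the age of the mice and how many of them contributed to an array are unstated in the labels.

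Mast cells and basophils are granule-bearing cells that arm their surface with IgE through a high-affinity receptor and release histamine and proteases when antigen crosslinks it. Both arise from marrow progenitors under the control of GATA factors, and the receptor chains, Hdc and the granule proteases are among the genes that define them. Mcpt8 and Prss34 are used in mice as basophil genes, Tpsb2 is a tryptase gene of connective tissue mast cells, and Cpa3 is active in both lineages and in some early progenitors. A sort for ILC progenitors is meant to leave mature cells of these lineages out, although both c-Kit and the integrin chain β7 are also carried by mast cell progenitors. The comparison addresses which of these transcripts were present in the sorted material and whether they differed between the genotypes.

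Values are on the log2 scale, as deposited, and each difference is the knockout-labelled array minus the wild-type one. No genotype had a replicate array, so no difference could be tested. As a description, each is set beside the 500 genes nearest in mean level, by their median, their spread (scaled median absolute deviation) and the central 95% of their differences. The array's negative control probe sets give the background: 95% of them lay below 4.80 in wild type and below 4.73 on the knockout-labelled array. A gene under these levels on both arrays is called near background. Yeats4 itself read 5.96 and 5.90 in wild type and on the knockout-labelled array, a difference of -0.06 beside a local spread of 0.34. Where its probe set lies relative to the deleted part is not known here, so the label is not checked by it. The genes of CD127, c-Kit and the α4 and β7 integrin chains read above background on both arrays, with Il7r (CD127) at 7.07 and 6.38, Kit at 7.12 and 7.77, Itga4 at 7.38 and 7.38 and Itgb7 at 6.46 and 6.32, while the gene of Sca-1 was not analysed here. Zbtb16, which encodes PLZF, read 5.04 in wild type and 4.68, under the background level, on the other.

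None of the 8 genes differed 2-fold between the arrays. Across all named genes 1.87% did so, and among the 10881 genes that passed a filter on level (a mean of at least 2.88, the median over probe sets) 2.34% did, so a count of 0 of 8 is near the background. Of the 8 genes, 5 read higher and 3 lower on the knockout-labelled array (4 and 4 after centring, the loess correction or quantile normalization), against 50.8% higher among all named genes. As deposited, no gene of the 8 reached 1.5-fold, which 12.9% of all named genes did. The median difference of the 8 was 0.09, beside 0.01 for all named genes and 0.08 for those past the level filter. All 8 lay inside the central 95% of their 500 neighbours in level, and 4 lay above and 4 below the median of those neighbours. Of the 8 genes, 6 read above background on both arrays, while Tpsb2 and Ms4a2 were near background on both, and 7 passed the level filter, which Ms4a2 did not. Each array read a whole sorted sample, so fewer cells of a type and less RNA per cell cannot be told apart.

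**Figure D1:**
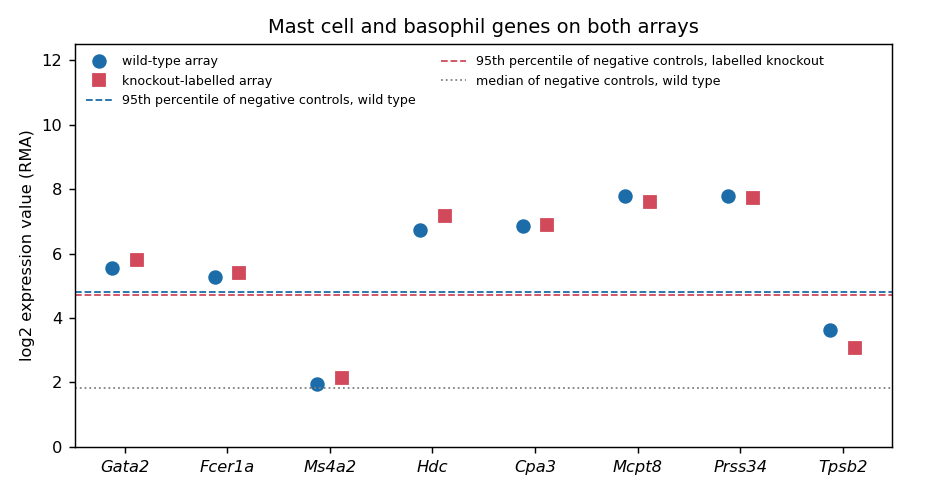
Log2 expression value (vertical axis) of the 8 mast cell and basophil genes in wild type (circles) and the knockout-labelled array (squares), 1 array each and no error bars; dashed lines mark the 95th percentile of the negative controls on each array (4.80 and 4.73) and the dotted line their median in wild type (1.84). Gata2, Fcer1a, Hdc, Cpa3, Mcpt8 and Prss34 lie above both dashed lines, and Tpsb2 and Ms4a2 below them.

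Because a GATA factor is among the genes, their promoters were scanned for the GATA words AGATAA and TGATAA, and the same ending in G in place of the last A, on both strands. The sequences are RefSeq's for GRCm38.p6, from 250 bases before to 50 after the annotated start, and entries were matched for 7 of the 8 genes (not Tpsb2). Shown are the basophil protease genes Prss34, with a match, and Mcpt8, without, beside Cpa3, which has a match close to its start, and Ms4a2, which has the most matches and read near background. Each is written 5′ to 3′ on the gene's strand, with matches in capitals. Prss34 lies at chr17:25298144-25298443 (plus strand), Mcpt8 at chr14:56085148-56085447 (minus strand), Cpa3 at chr3:20242132-20242431 (minus strand) and Ms4a2 at chr19:11623670-11623969 (minus strand).
Prss34: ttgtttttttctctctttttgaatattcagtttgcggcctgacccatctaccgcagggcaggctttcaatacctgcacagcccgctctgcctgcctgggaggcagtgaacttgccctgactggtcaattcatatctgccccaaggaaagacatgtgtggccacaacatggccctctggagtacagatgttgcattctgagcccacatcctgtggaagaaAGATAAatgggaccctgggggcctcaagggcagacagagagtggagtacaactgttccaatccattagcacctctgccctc
Mcpt8: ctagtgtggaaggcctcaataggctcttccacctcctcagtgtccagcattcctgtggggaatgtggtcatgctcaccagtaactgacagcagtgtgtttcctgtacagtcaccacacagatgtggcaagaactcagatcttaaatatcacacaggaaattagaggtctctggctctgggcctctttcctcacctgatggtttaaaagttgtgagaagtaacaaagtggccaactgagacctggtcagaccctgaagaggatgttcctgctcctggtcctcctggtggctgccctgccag
Cpa3: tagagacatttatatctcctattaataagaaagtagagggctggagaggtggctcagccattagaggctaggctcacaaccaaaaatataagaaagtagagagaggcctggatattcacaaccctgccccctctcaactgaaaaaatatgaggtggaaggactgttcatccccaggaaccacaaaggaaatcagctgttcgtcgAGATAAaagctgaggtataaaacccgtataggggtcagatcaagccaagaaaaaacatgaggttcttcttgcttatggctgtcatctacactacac
Ms4a2: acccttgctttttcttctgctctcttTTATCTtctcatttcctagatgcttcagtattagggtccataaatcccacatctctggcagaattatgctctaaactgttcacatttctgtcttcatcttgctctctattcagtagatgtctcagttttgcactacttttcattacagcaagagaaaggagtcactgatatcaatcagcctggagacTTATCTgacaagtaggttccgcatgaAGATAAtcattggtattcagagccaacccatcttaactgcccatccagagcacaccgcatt

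In these windows the match began at base -31 from the start in Prss34 and at -46 in Cpa3. Ms4a2 had matches at -224, -37 and -11. Outside the sequences shown, Fcer1a had 1 match at -92 and Hdc 1 at -221, and neither of the 2 Gata2 promoters listed had one. In all, 5 of the 7 matched genes, or 5 of their 8 promoters, had a match, and 29.8% of 32851 RefSeq promoters of this length do. The E-box word CANNTG reads the same on both strands. It was found for 6 of the 7 genes, counted by gene, and in 72.3% of all promoters, counted by promoter. None of the 7 GATA matches overlapped an E-box word. An overlap count cannot show words that lie some bases apart, and the spacing between them was not measured. Ms4a2, with 3 matches, read near background, and Mcpt8, with none, read above background on both arrays. A word in a promoter is a description of letters and not a binding site.

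Gata2 encodes the zinc finger factor that mast cell and basophil progenitors need, and which stem cells also use. Its probe set (Entrez gene 14461) read 5.55 in wild type and 5.80 on the knockout-labelled array. That is 1.19-fold higher, a difference of 0.25 on the log2 scale beside a local spread of 0.34. Among its 500 neighbours in level 61.2% had a lower difference, so Gata2 lay near the middle of them. Its relative Gata1, which also drives erythroid and megakaryocyte genes, read 5.32 and 5.37 (difference 0.05).

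The high-affinity IgE receptor is built of an α chain that binds IgE, a β chain that amplifies the signal and a shared γ chain. Fcer1a, the α chain gene (Entrez gene 14125), read 5.27 in wild type and 5.40 on the knockout-labelled array, which is above background by 0.46 and 0.67. Its difference of 0.13 was almost that of its neighbours in level (median 0.11, spread 0.37), of which 52.2% were lower. The β chain gene Ms4a2 (Entrez gene 14126) read 1.95 and 2.14. Of the 5222 negative controls 47.1% read as high in wild type and 41.4% on the other, so its measured difference of 0.19 is one between background readings and no fold is given. The γ chain gene Fcer1g, which other Fc receptors and many blood cells also use, read 8.80 and 8.82 (difference 0.02). The α and γ chain genes were thus read on both arrays with little difference, and the β chain gene was near background on both.

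Hdc, the enzyme that makes histamine from histidine, showed the highest difference of the 8. Its probe set (Entrez gene 15186) read 6.73 in wild type and 7.16 on the knockout-labelled array, 1.35-fold higher or 0.43 on the log2 scale. The neighbours in level had a median of 0.15 and a spread of 0.26, and 88.2% of them had a lower difference. Hdc therefore stood 1.06 spreads above that median and inside the central 95%, which ran from -0.43 to 0.63. Myeloid progenitors also express Hdc.

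As deposited, Cpa3 read slightly higher on the knockout-labelled array and the other granule protease genes lower. All of them lay below the median of their neighbours in level, by 0.11 for Cpa3, 0.18 for Prss34, 0.31 for Mcpt8 and 0.51 for Tpsb2. Cpa3, which encodes the carboxypeptidase of mast cell granules (Entrez gene 12873), read 6.84 and 6.89, a difference of 0.05 that turned to -0.04 after centring, -0.11 after a loess correction on level and -0.10 after quantile normalization. Prss34, a basophil tryptase-like protease also known as mMCP-11 (Entrez gene 328780), read 7.78 in wild type and 7.73 on the knockout-labelled array, a difference of -0.04. For Cpa3 and Prss34 the arrays differed by less than the local spreads of 0.27 and 0.22. Mcpt8, the basophil granule serine protease (Entrez gene 17231), read 7.77 and 7.60, 1.13-fold lower, with a difference of -0.17. Its neighbours in level had a median of 0.14 and a spread of 0.22, and 9.6% of them were lower, which put Mcpt8 1.37 spreads below their median, the farthest of the 8. Tpsb2, a mast cell tryptase (Entrez gene 17229), read 3.62 in wild type and 3.07 on the other. The measured difference of -0.55 is the largest of the 8 in size, but 14.1% and 20.5% of the negative controls read as high, so no fold is given, and 11.2% of its neighbours in level were lower. The basophil proteases and the carboxypeptidase were thus above background on both arrays, and the mast cell tryptase was not on either.

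**Figure D2:**
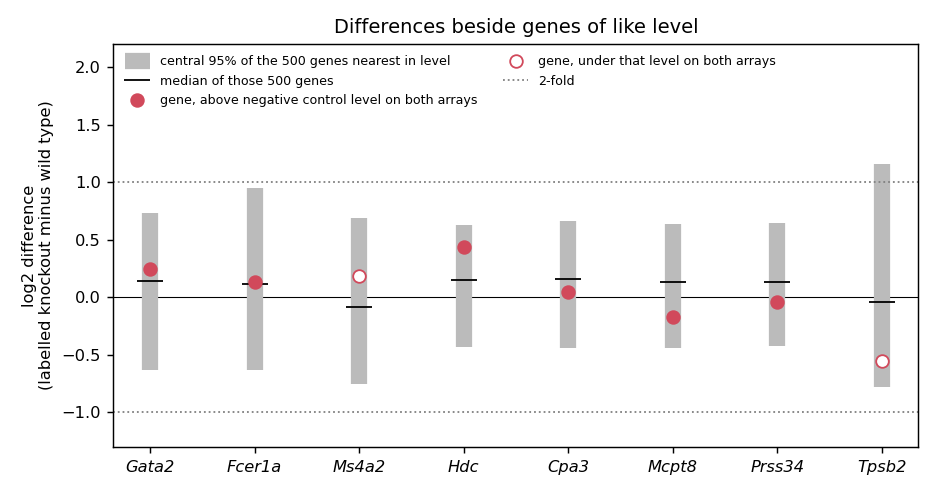
Log2 difference, knockout-labelled array minus wild-type array (vertical axis), of each of the 8 genes (circles, open where near background on both arrays), with the central 95% (grey bar) and median (black dash) of the 500 genes nearest in level; dotted lines mark 2-fold. All 8 circles lie within their grey bars, with Hdc (0.43) highest and Tpsb2 (-0.55) lowest.

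Among the 6 genes above background the differences ran from -0.17 for Mcpt8 to 0.43 for Hdc, so the genes differed from each other by up to 0.60. The local spread of these genes lay between 0.22 and 0.37. Over these 6 genes 4 read higher, against 65.7% of all 5283 genes above background on both arrays, and none of them differed 2-fold, against 0.625% of the same genes. The genes nearest to each over the 2 arrays, by Euclidean distance, were Polr2c and Psma7 for Hdc, Asph and Sfswap for Gata2, and Nfe2l1 and Cux1 for Cpa3. For Mcpt8 they were Arhgap1 and Rpl32l, for Fcer1a Lamtor1 and Nipsnap2, and for Prss34 Ppp6r1 and H2bc22. All these distances were at most 0.0253, and with 2 arrays they say only that the values were alike.

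**Figure D3:**
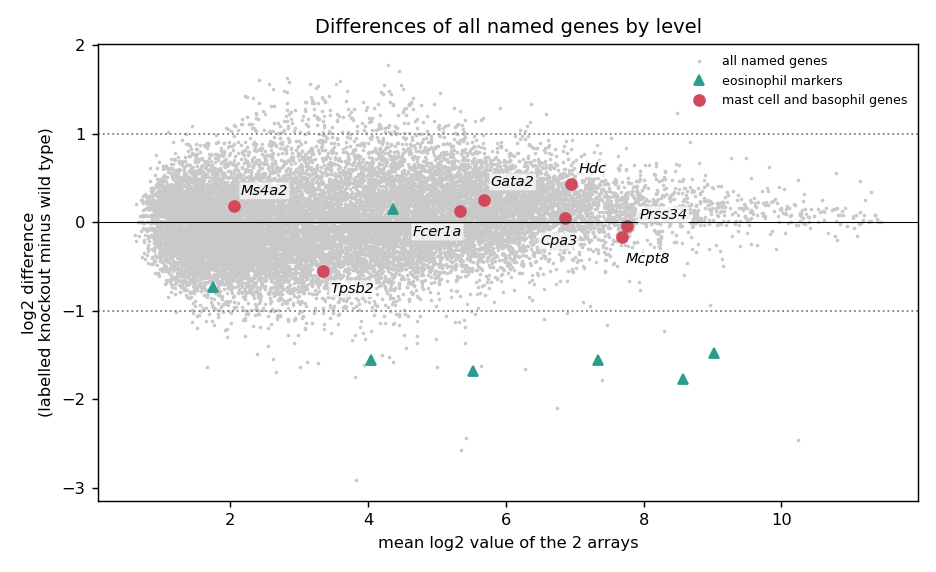
Log2 difference, knockout-labelled array minus wild-type array (vertical axis), against the mean log2 value of the 2 arrays (horizontal axis) for all 19505 named genes (grey), the 8 mast cell and basophil genes (circles) and 7 eosinophil markers (triangles); dotted lines mark 2-fold. The 8 genes lie within the grey cloud, and 5 of the 7 eosinophil markers lie below the lower dotted line.

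Some of the genes lie in clusters of relatives, and the relatives did not read alike. Mcpt8 lies in the chymase and granzyme cluster of chromosome 14, in RefSeq's gene order next to Ctsg on one side and Mcpt4, Mcpt9, Mcpt2, Mcpt1 and Cma2 on the other. Those 5 mast cell protease genes were near background on both arrays, with values between 0.92 and 2.08. Ctsg, the cathepsin G gene of neutrophil and mast cell granules, read 8.91 in wild type and 9.63 on the knockout-labelled array, 1.65-fold higher (0.72), and 99.4% of its neighbours in level had a lower difference. Mcpt8 and Ctsg, adjacent on the chromosome, thus had differences of opposite sign, although that of Mcpt8 (-0.17) was smaller than its local spread of 0.22. Prss34 and Tpsb2 lie 3 genes apart in the tryptase cluster of chromosome 17. Between them Prss28 (1.64 and 1.29) and Prss29 (4.25 and 3.88) were near background, as was Tpsg1 (3.13 and 2.25) beyond Tpsb2. Prss34 was thus the sole gene above background among these 5. Next to Ms4a2 on chromosome 19 lies Ms4a3, a gene of granulocyte and monocyte progenitors, which was picked after its values were seen. It read 8.23 and 9.13, a difference of 0.91, while Ms4a2 itself was near background. Of the genes within 5 places of Hdc, Atp8b4, also picked after its values were seen, had the highest difference, 0.78 (6.97 and 7.75).

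Genes of the same pathways were described from lists of related genes. Of 23 measured genes of signalling below the IgE receptor, 11 read higher and 12 lower, with a median difference of -0.01 and none 2-fold. The lowest were Lat, the adaptor of IgE and T cell receptor signalling, at -0.68 (6.67 and 5.99), Itpr2, an inositol trisphosphate receptor gene, at -0.64 (6.19 and 5.55), and the kinase gene Fyn at -0.60 (6.68 and 6.08). T cells also express Lat and Fyn, and of 10 T cell markers on the same array 7 were, as measured, at least 2-fold lower, against 0.702% of all named genes, and 5 with values under the background level raised to it. The summed linear value of those markers was 940 in wild type and 277 on the other. After Lat, Itpr2 and Fyn the next lowest were Cblb (-0.56), Plcg1 (-0.54) and Prkcb (-0.50). All of these lay below the central 95% of their neighbours in level, with 0.8% (Lat, Cblb) to 1.8% (Prkcb) lower. No gene of the list lay above that range, and the highest, Orai1 (0.43), had 83.0% of its neighbours lower. Syk, the kinase recruited to the receptor, was at -0.26, Gab2 at 0.25 and Btk at 0.42. The part of T cell RNA in these values was not tested.

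Among 16 measured genes of granule proteases and matrix the median difference was 0.24 (0.53 over the 7 past the level filter and 0.0000 with raised background values), with 9 higher, 7 lower and none 2-fold. Of the 16, 9 were near background, among them the mast cell chymase gene Cma1 (1.98 and 1.51) and the tryptase gene Tpsab1 (1.95 and 1.85). All 7 genes above background read higher (65.7% of all such genes did), led by Prss57, a neutrophil granule serine protease (0.92, 6.41 and 7.33), Ctsg (0.72) and Serpinb1a, an inhibitor of such proteases (0.67, 8.47 and 9.14). Those 3 genes are also expressed by neutrophil progenitors. Srgn, the serglycin core protein that holds granule proteases in many blood cells, read 10.90 and 11.37.

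In the list of 16 transcription factor genes the median difference was 0.02 (-0.06 after centring, -0.11 after the loess correction and -0.07 after quantile normalization), with 9 higher, 7 lower and none 2-fold as deposited. Bhlhe40, a basic helix-loop-helix repressor used by many lymphoid and myeloid cells, was the lowest at -0.90 (7.57 and 6.67, 1.87-fold lower). Among genes above background it was followed in size by Lyl1 (0.41), a basic helix-loop-helix relative of Tal1, and Cebpa (0.28), whose product favours the basophil fate over the mast cell fate. Mitf, the mast cell factor gene, was near background (3.32 and 3.04, difference -0.28). Spi1 read 10.68 and 10.81 and Runx1 7.09 and 7.31.

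Surface receptor genes had a median difference of 0.18 over 17 measured genes (0.09 after centring, 0.04 after the loess correction, 0.05 after quantile normalization, 0.08 over those past the level filter and 0.0000 with raised background values), 9 higher, 8 lower and none 2-fold. Kit, the receptor of stem cell factor on mast cells and on the sorted progenitors, was 1.57-fold higher (0.65, beside a local spread of 0.25). Of its neighbours in level 97.8% had a lower difference, so Kit, whose product was used in the sort, lay above their central 95%. Il3ra, the IL-3 receptor chain gene of basophils, read 5.64 and 5.54, a difference of -0.10, and the tetraspanin gene Cd63, whose product marks granule membranes, read 7.34 and 7.79 (0.45). Ccr3, the eotaxin receptor of eosinophils and basophils, read 4.02 in wild type, under the background level, and 4.98 on the other, at least 1.13-fold higher (0.96 as measured). The mast cell receptor gene Mrgprb2 (1.62 and 1.24) and the basophil surface genes Cd200r3 (3.77 and 3.30) and Itga2 (3.05 and 3.25) were near background.

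Genes of histamine, lipid mediators and cytokines had a median difference of -0.0040 over 14 measured genes, of which 9 were near background. Leukotriene genes were above background, with Alox5ap at 7.98 and 7.99, Alox5 at 5.68 and 5.71 and Lta4h at 7.87 and 8.26 (0.39). Ltc4s, the leukotriene C4 synthase gene, read 4.51, under the background level, and 4.92, at least 1.08-fold higher, and Csf1 was at -0.18. The cytokine genes Il4 (1.35 and 1.51) and Il13 (3.98 and 3.64), the amine transporter gene Slc18a2 (3.63 and 3.07) and the prostaglandin D synthase gene Hpgds (3.51 and 3.32) were near background. These are genes of activated or mature mast cells and basophils.

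**Figure D4:**
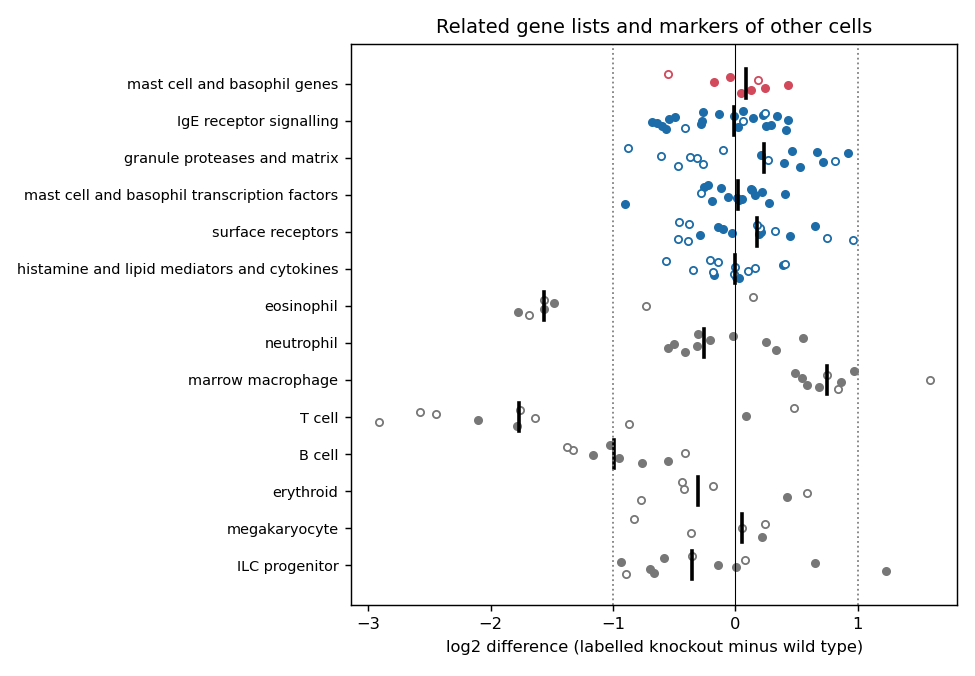
Log2 difference, knockout-labelled array minus wild-type array (horizontal axis), of each measured gene in the 8 mast cell and basophil genes, 5 related lists and 8 lists of cell type markers (including ILC progenitors, the sorted cells); black bars are medians, open circles lie under the background level on at least 1 array, and dotted lines mark 2-fold. The 8 genes lie between -0.55 and 0.43, while the eosinophil, T cell and B cell medians lie at -1.56, -1.77 and -0.99.

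Several lists of markers of other blood cells lay farther from 0 than the 8 genes, in both directions. Of 7 eosinophil markers 5 were at least 2-fold lower as measured (4 with raised values), against 0.702% of all named genes, with a list median of -1.56 and a summed linear value of 1985 in wild type and 671 on the other. They were Ear6 (-1.78), Alox15 (-1.68), Epx (-1.56), Prg3 (-1.56) and Prg2 (-1.48); Alox15 and Prg3 were under the background level on the knockout-labelled array, at least 2.94-fold and 1.01-fold lower. The eosinophil surface genes Siglecf and Il5ra were near background on both arrays. The summed linear value of the 8 mast cell and basophil genes was 760 and 779, and that of all named genes was 792346 and 850733. T cell markers had a median of -1.77, or -0.83 with values raised to the background level. Those above background on both arrays that differed 2-fold were the CD3 chain gene Cd3e (-2.10) and the chemokine gene Ccl5 (-1.78). Of the others at least 2-fold lower as measured, 4 fell under that level on the knockout-labelled array only. Cd8a and Cd8b1 were each at least 3.57-fold lower, Cd3g at least 2.02-fold and Cd3d at least 1.39-fold. Themis (4.69 and 2.94) was near background on both arrays. Cd247 (5.46 and 4.59), less than 2-fold lower as measured, was at least 1.57-fold lower. Of the 10 T cell markers 2 read higher. They were Cd4, above background on both arrays (5.28 and 5.37, difference 0.09), and Trat1, near background. B cell markers had a median of -0.99, with 4 of 8 at least 2-fold lower as measured and 2 with raised values. The latter were Igll1, of the surrogate light chain (-1.16), and Vpreb3 (-1.02), while Pax5 and Vpreb1, under the background level on the knockout-labelled array, were at least 1.79-fold and 1.51-fold lower. All 9 marrow macrophage markers read higher, against 50.8% of all named genes, with a median of 0.75 (0.55 with raised values). They were led among genes above background by Vcam1 (0.97), C1qc (0.86) and C1qa (0.69), while 3, Cd5l, Adgre1 and Mertk, were near background. Of the 9 markers 1, Cd5l, was at least 2-fold higher as measured, against 1.16% of all named genes. Neutrophil markers had a median of -0.26 over 10 genes, with 3 higher and 7 lower. The higher ones were Prtn3 (0.55), Elane (0.34) and Mpo (0.25), and the lower ones included Ltf (-0.55) and Mmp9 (-0.50). The summed linear value of the 10 was 10803 in wild type and 11856 on the other. Erythroid markers had a median of -0.30 over 6 genes, with Slc4a1 (4.99 and 4.56, under the background level on the knockout-labelled array) at -0.44 and Car1 at 0.42. Megakaryocyte markers had a median of 0.06 over 5 genes (-0.03 after centring), with Gp9 at 0.22. Near background were 4 of those 6 erythroid genes and 4 of those 5 megakaryocyte genes, and both medians were 0.0000 with raised values. The 11 genes of ILC progenitors, the sorted cells themselves, had a median of -0.35, with Id2 at 1.23, Nfil3 at -0.93 and Il7r at -0.70. The part of the other blood cells in the values of the 8 genes was not tested, and the difference between lists was not tested.

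The direction of most of the 8 genes was the same under each setting tried, with Cpa3 the exception. The mean of probe sets could not move any of the 8, as each has 1 probe set. Raised background values could not move those above background on both arrays. Hdc lay between 0.28 and 0.43, Gata2 between 0.11 and 0.25 and Fcer1a between 0.01 and 0.13. Mcpt8 lay between -0.32 and -0.17 and Prss34 between -0.19 and -0.04. No gene of the 8 reached 2-fold under any setting. Tpsb2 and Ms4a2, near background, read a difference of 0 once values under the background level were raised to it. The median of the 8 was 0.09 as deposited but -0.05 after the loess correction and -0.04 after quantile normalization, so it has no settled sign.

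**Figure D5:**
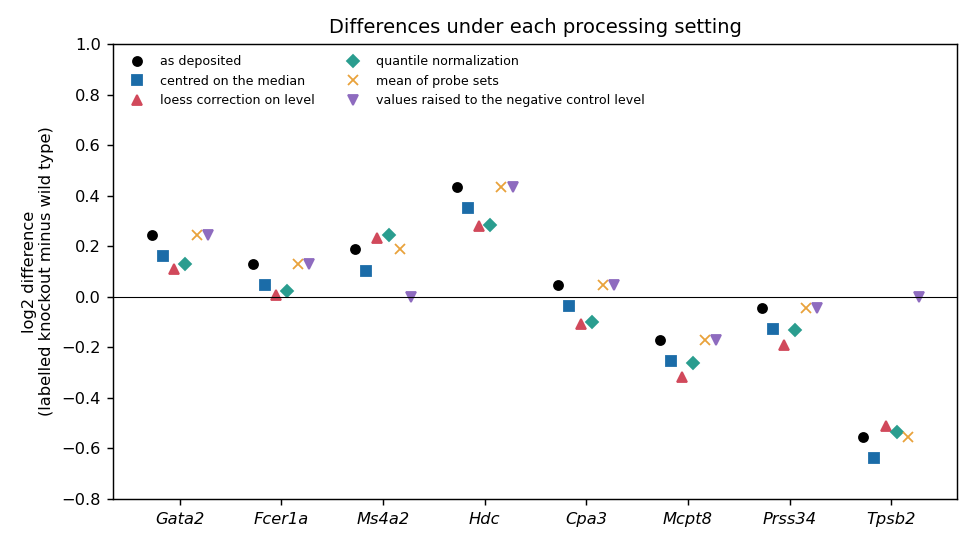
Log2 difference, knockout-labelled array minus wild-type array (vertical axis), of each of the 8 genes under the deposited values and 5 other settings (symbols, key in the plot). Hdc and Gata2 stay above 0 and Mcpt8 and Prss34 below 0 in all 6, Cpa3 crosses 0, and Tpsb2 moves from -0.55 to 0 when values are raised to the background level. Neither the mean of probe sets (each gene has 1) nor raised background values could move genes above background on both arrays.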

How the data were processed

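The deposited values are log2 expression per probe set on 2 arrays. The authors used Affymetrix Power Tools with RMA, per the submitters' processing notes (background correction, quantile normalization, probe set summary). Such values cannot show a change in total RNA per cell. Tool versions and the genome build are unstated there. Gene names rest on the platform annotation, which matches the probe set names but is of another Affymetrix mouse design than the Mouse Gene 2.0 array named by the submitters. Of 29129 probe sets 19572 have 1 symbol and none several; 55 genes have several probe sets, of which the brightest was used. Where a gene was under background (the negative controls' 95th percentile, 5222 probe sets) on 1 array, a fold is a lower limit against 4.80. The limits take the other array's reading as exact and hold no replicate error. Medians of lists cover every measured member. The genes, lists and settings were chosen with earlier results of these data known. The rule names all 8 genes, and per list the 3 largest differences above background on an array and any 2-fold ones, up to 6. Other list genes are examples chosen after their values were seen. List genes without a match in the annotation were not analysed here. RefSeq's tables (GRCm38.p6) gave gene order, with 5 coding genes on each side, and promoters. Settings tried were centring, loess on level (span 0.3), quantile normalization, the mean of probe sets, raised background values, other level filters, 1.5-fold, and 200 or 1000 neighbours in level. Calculations were tested on simulated data and used Python 3.11.15, numpy 2.4.6, pandas 2.3.3 and statsmodels 0.14.6. The number of arrays limits the precision.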

Additional observations from a re-analysis of the deposited data

How the results depend on the processing

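No paired analysis was possible because each genotype has 1 array, and no replicate could be left out. With values under the background level raised to it, the difference of Tpsb2 was 0.0000 and the median of the T cell markers -0.83; by construction such values no longer differ. The count of genes at least 2-fold higher was 170, and 19 with raised values, 35 with a level filter at the 75th percentile and 997 at 1.5-fold. For genes at least 2-fold lower it was 85, and 23 with raised values, 25 with the 75th percentile, 137 with no level filter and 561 at 1.5-fold. A stricter filter tests fewer genes. The other 132 recomputed values moved by less than the local spread (genes), the spread of all genes past the filter (list medians) or 1.5 times (counts). Some of the 132 could not move. The mean of probe sets left all 8 genes as they were, as each has 1 probe set, and raised values left those above background on both arrays unchanged. With 200 or 1000 neighbours in place of 500, all 8 genes stayed inside the central 95%. Signal over background limits Tpsb2 and Ms4a2, and 1 array per genotype limits every difference.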
